A study of Drosophila melanogaster with 20 samples.

Results

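Z-disc proteins and muscle actins were followed through 11 probe sets of 6 genes, Actn, Zasp52, CAP, Mlp84B, Act79B and Act87E, in Drosophila melanogaster embryos with different levels of Mef2 activity. They were all the probe sets that the platform annotation pairs with 1 of these symbols alone, out of 13966 probe sets other than the array's own controls. The 6 genes were among 10844 with a named probe set, and all 11 sets passed the filter on low signal. Actn, Mlp84B, Act79B and Act87E had 1 probe set each, Zasp52 had 3 and CAP had 4. The RefSeq Release 6 table places Actn on chromosome X, Zasp52 and CAP on 2R, Mlp84B and Act87E on 3R and Act79B on 3L.

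Whole embryos of 5 genotypes had been hybridised to Affymetrix arrays, 4 per genotype. The control was the Dp cn a px sp stock, which carries marker mutations and is, per the labels, the stock in which the hypomorphic alleles mef2(65), mef2(424) and mef2(113) were induced. The last genotype carried mef2(22.21), labelled Null. No such origin is given for the null allele. All embryos came from 30 min collections aged 6.5 h at 25 °C, were staged at mid 12 by autofluorescence and were taken at mid stage 13 in pools of 150. Mutants were picked one by one for lacking the green CyO balancer with Gal4-twi and UAS-2eGFP, a selection that the labels describe for mutants alone. The labels order Mef2 activity from control through 65, 424 and 113 to the null. Whether the 4 arrays of 1 genotype stem from different embryo collections is not stated, and the p-values refer to array-to-array spread that could be technical.

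In striated muscle the Z-disc is the plate at which thin filaments of opposite polarity are anchored, so it marks the border of each sarcomere. Alpha-actinin, the product of Actn, crosslinks the actin filaments there. Zasp52 encodes a PDZ and LIM domain protein that binds alpha-actinin, Mlp84B encodes a muscle LIM protein of the Z-disc, and CAP encodes a vinexin-family adaptor with SH3 domains that is found at muscle attachment sites. Act79B and Act87E encode actins of muscle. Mef2 is a transcription factor required for muscle differentiation in the fly, and the stage sampled lies early in that process.

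Values are MAS5 signals, linear intensities of which every probe set has 1 on each array, that the authors had scaled to a common trimmed mean of 100.02. Median signals per array lay between 33.7 and 37.4. Changes are given as log2 differences of log2(signal + 16) with standard errors from limma, fitted over all 10474 probe sets past the filter, and a probe set was called at a Benjamini-Hochberg adjusted p under 0.05. The pseudocount of 16 understates the change of dim probe sets. Both actin probe sets carry the suffix _f_at, one of 53 such sets on the array, which by Affymetrix naming marks probes that can bind several members of a gene family. A signal named Act79B or Act87E can therefore include mRNA of the other muscle or cytoplasmic actins, and the shares cannot be told apart. In whole embryos, fewer muscle cells and less mRNA per cell cannot be told apart either.

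Markers of the sampled tissue were present. In this and every other gene list below, a gene was represented by its brightest probe set alone, and further sets of it are not reported. The neuron, glia, trachea and epidermis lists each had 3 or more members past the filter, as did the myoblast and founder list. In the null, the summed signal of 13 myoblast and founder markers ran from 1015 to 1177, against 1022 to 1149 in the control. That of 5 visceral muscle markers ran from 1567 to 1937 in the null and from 2196 to 2650 in the control, without overlap. Most of this sum came from 1 gene, betaTub60D, with means of 2118 in the control and 1513 in the null. The mean sums were 2481 and 1715.

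The null lowered some Z-disc and actin probe sets while others overlapped the control range. Of the 11 probe sets, 4 were called lower and 0 higher than in the control, where 17.7% of all tested probe sets were called in either direction and 9.57% were called lower. At an unadjusted p under 0.05 there were 6, as were 29.1% of all tested sets. The 4 were Actn, the brightest CAP set and the sets named Act79B and Act87E. The median change over the 11 sets was -0.24, against -0.01 over all tested sets. All 4 null arrays lay below all 4 control arrays for 5 of the 11 sets, and for 10.4% of all tested sets.

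**Figure D1:**
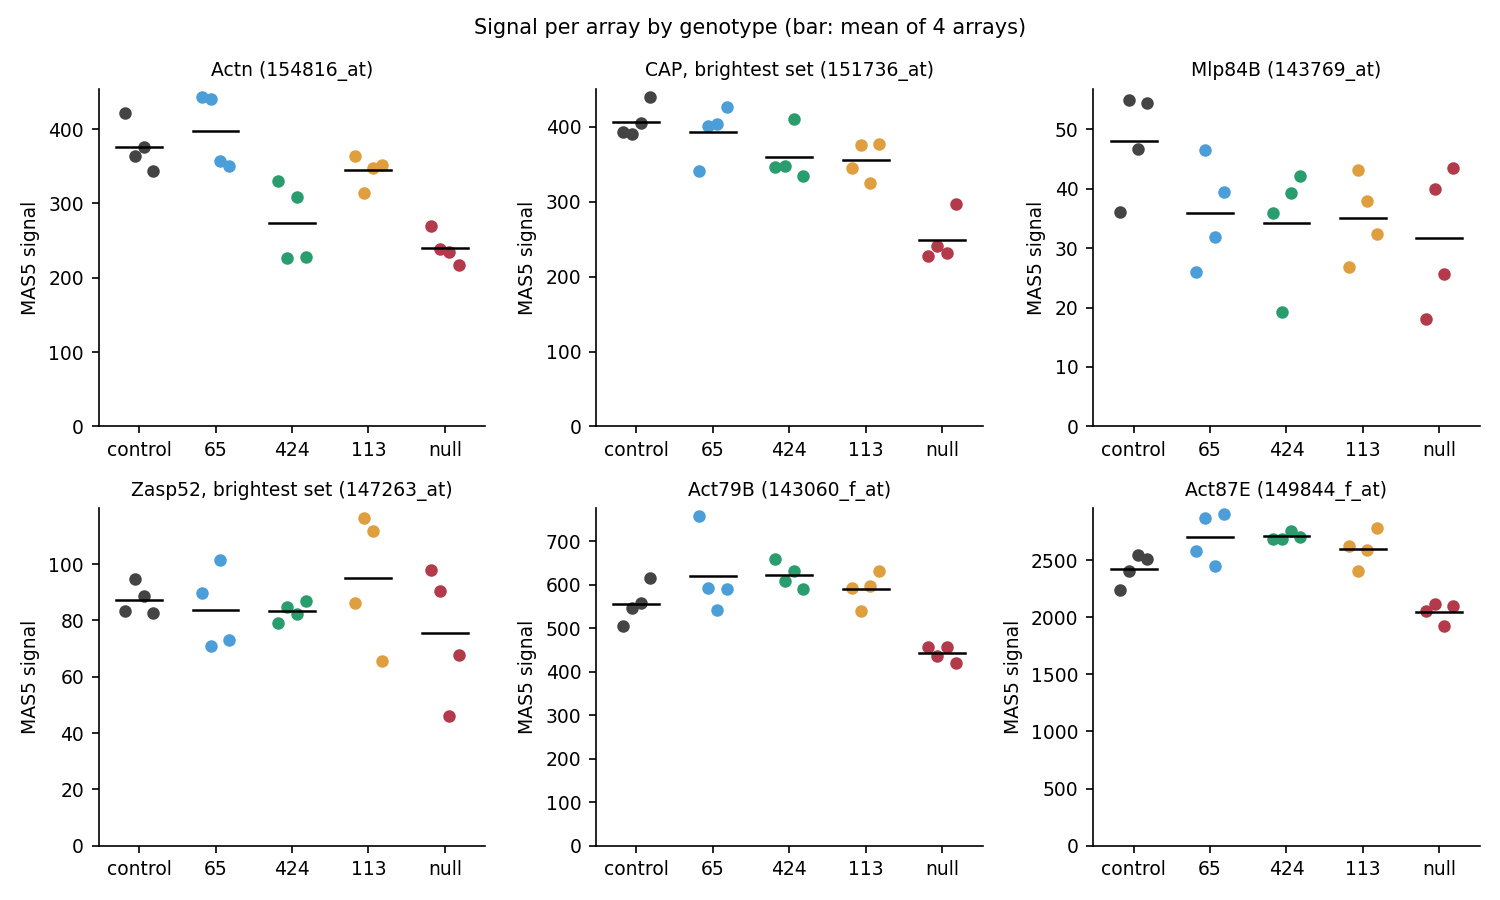
MAS5 signal of 1 probe set per gene (vertical axes from 0, linear) in the 4 arrays of each genotype, with bars at the means. For Actn, CAP, Act79B and Act87E the null arrays lie below all control arrays, while those of Zasp52 and Mlp84B overlap the control.

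Actn (154816_at), the alpha-actinin gene, gave signals of 421, 364, 376 and 343 in control replicates 1 to 4 and 269.9, 238, 235 and 218 in the null. Every null array lay below the lowest control array. The mean fell from 376 ± 33.0 to 240 ± 21.8 (SD, n = 4 each), or to 63.8% of the control. The log2 change was -0.61 ± 0.11 (SE, limma adjusted p = 0.00031), with a 95% interval from -0.85 to -0.38.

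The hypomorph means of Actn did not follow the labelled order of activity. Arrays of allele 65 read 443, 440.2, 357 and 350.5, of which 2 lay above the highest control array and 2 inside the control range, with a change of 0.07 ± 0.11 (limma adjusted p = 0.849). Those of 424 read 330.2, 227, 309 and 227 and lay below every control array. The 424 mean of 273 ± 54.1 (SD, n = 4) was 72.6% of the control, a log2 change of -0.45 ± 0.11 (limma adjusted p = 0.0105). The 113 arrays, whose labelled activity is lower than that of 424, read 364, 313, 348 and 352, of which 3 lay inside the control range and 1 below it, with a change of -0.12 ± 0.11 (limma adjusted p = 0.665).

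Actn was the 1 member called in the comparison of 424 with the control, where 8.83% of tested probe sets were called. It was 1 of 2 member sets that lay entirely below the control there, as did 7.40% of all tested sets, and the other was the CAP set 146934_at. Ranked by mean, the order was 65, control, 113, 424 and null, and no 2 neighbours in that order differed past the threshold. The 424 embryos were below the 65 embryos by a log2 change of -0.53 ± 0.11 (limma adjusted p = 0.0058), which was again the only member called, against 4.04% of all tested sets. Between 113 and 424 the difference was 0.33 ± 0.11 (limma adjusted p = 0.0837). It passed the threshold with the replicate number as a block, at a limma adjusted p of 0.0231, and with the hybridisation day as a block, at 0.0149. Number and day coincided for every array except in allele 65, so these blocks are not separate support. The null and 424 differed by -0.16 ± 0.11 (limma adjusted p = 0.394), and their arrays overlapped.

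The 4 arrays of 424 were in pairs for Actn. Replicates 1 and 3 read 330.2 and 309 and had been washed in fluidics module 2, whereas replicates 2 and 4 read 227 and 227 and had been washed in module 1. The pairs also fell on different hybridisation days. Without replicate 2 the change against the control was -0.38 (limma adjusted p = 0.0532), and without replicate 4 it was -0.38 (limma adjusted p = 0.0519), so the call was lost without either. With the module as a block the change was -0.28 (limma adjusted p = 0.719), and no 424 array shared a module with a control array. Against 65, the 2 arrays of each genotype in module 1 differed by -0.77. Those arrays shared no hybridisation day, with days 2 and 4 for 424 and days 1 and 3 for 65. On the days that 424 and 65 shared, the differences were smaller, at -0.40 on day 1 and -0.19 on day 3. The arrays of 65 also split by day, at 443 and 440.2 on day 1 and 357 and 350.5 on day 3. The part of the module in these differences was not tested further.

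**Figure D2:**
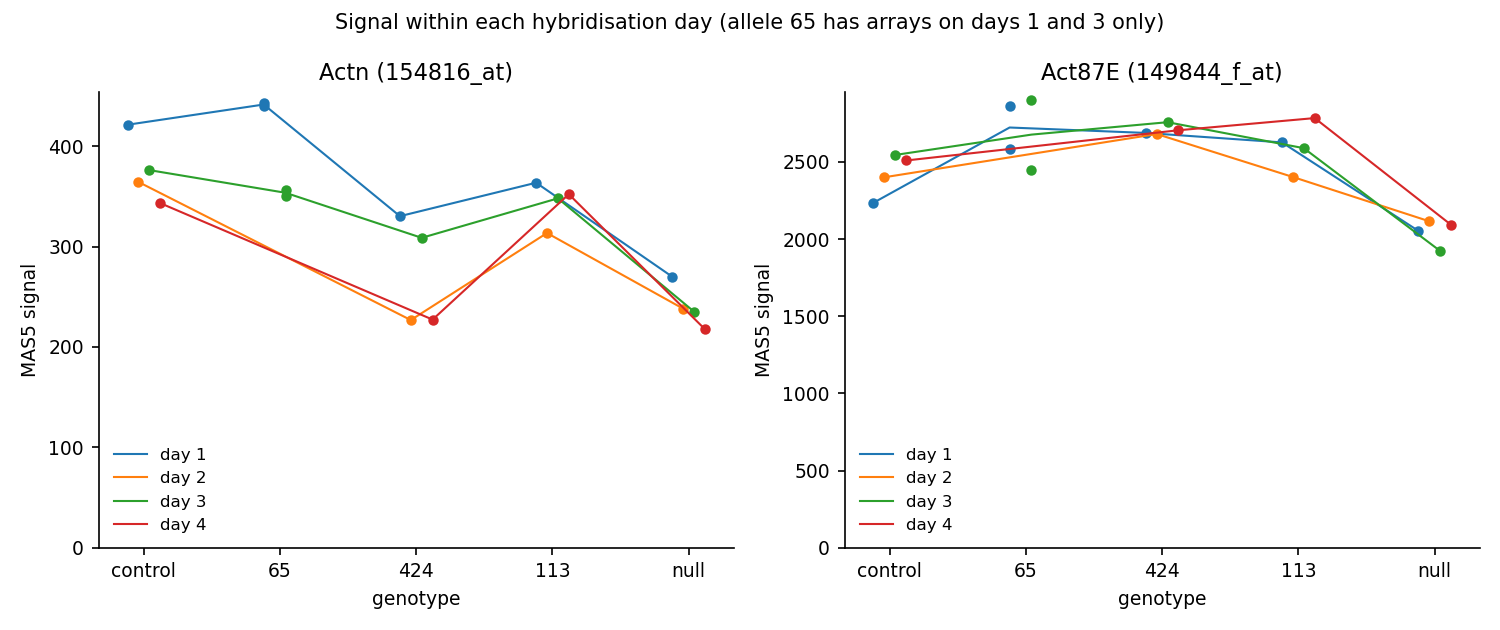
Signal of Actn and of the Act87E probe set (linear axes from 0) in each genotype, with lines joining arrays hybridised on the same day. Days 2 and 4 have no array of allele 65, so their lines run from control to 424; on all 4 days Actn is lower in 424 and in the null than in the control.

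Within hybridisation days, Actn in the null was below the control on 4 of 4 days, by -0.64 to -0.58 on the log2 scale. In 424 it was below on 4 of 4 days, by -0.65 to -0.27. Between 113 and 424 it was higher in 113 on all 4 days, by 0.13 to 0.60, while the 2 arrays of each in module 2 differed by 0.05. In module 4, which held every control array and 2 null arrays, the null change was -0.55.

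CAP, the vinexin-family adaptor, was measured by 4 probe sets, of which only the brightest was called in the null. The brightest, 151736_at, read 393, 390.1, 405 and 440.1 in the control and 228, 240.3, 232 and 296 in the null. Every null array lay below the control range. The mean went from 407 ± 22.9 to 249 ± 31.9 (SD, n = 4 each), which is 61.2% of the control. This was a log2 change of -0.68 ± 0.09 (limma adjusted p = 6.57e-06), with a 95% interval from -0.87 to -0.49.

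The hypomorphs kept most of the 151736_at signal. Its readings were 341, 401, 403 and 426 in 65, 347, 347, 411 and 334 in 424 and 345, 376, 326 and 377 in 113. All 12 hypomorph arrays lay above the highest null array, at 296, and 8 of 12 lay below the lowest control array. The 113 arrays were all below the control arrays, but the change of -0.19 ± 0.09 was not called (limma adjusted p = 0.298). Those of 424 and 65 were -0.17 ± 0.09 (limma adjusted p = 0.28) and -0.05 ± 0.09 (limma adjusted p = 0.87). In order of mean the genotypes ran control, 65, 424, 113 and null, as the labels order activity, and only the last step, from 113 to the null, passed the threshold at -0.49 ± 0.09 (limma adjusted p = 0.00052). With the module as a block that step was -0.34 (limma adjusted p = 0.0899), and between the 2 arrays of each in module 3 it was -0.31. The other CAP sets were not called in that step, at -0.09 for 142967_at, 0.11 for 146933_at and 0.25 for 146934_at. Where the mean over the CAP sets stood for the gene, the step was -0.05 (limma adjusted p = 0.868).

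The second CAP set, 142967_at, read 99.4, 81.8, 92.2 and 71.8 in the control and 56.5, 43.2, 61.8 and 44.3 in the null, again without overlap. Its change of -0.60 ± 0.24 in the null did not pass the threshold (limma adjusted p = 0.0866). It passed when only the arrays of the 2 genotypes were fitted (limma adjusted p = 0.0114) and with the day as a block (limma adjusted p = 0.0417). In 424 its arrays read 99.8, 25.2, 76.2 and 35.9, and as for Actn the high pair was replicates 1 and 3. The 113 arrays, at 62.0, 56.2, 42.3 and 62.4, all lay below the control, with a change of -0.51 ± 0.24 (limma adjusted p = 0.258).

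The remaining CAP sets were dim and their arrays were spread widely. For 146933_at the control read 40.6, 10.2, 36.5 and 30.8 and the null 21.1, 22.1, 31.8 and 35.2, a change of -0.02 ± 0.28 (limma adjusted p = 0.979). For 146934_at the control read 14.98, 13.0, 17.6 and 17.2 and the null 14.4, 7.35, 39.7 and 10.5, a change of 0.02 ± 0.28 (limma adjusted p = 0.98). Neither set separated the null from the control, and 95% intervals from -0.61 to 0.57 and from -0.57 to 0.60 hold changes nearly as large as that of 151736_at. The 424 arrays of 146934_at, 7.29, 12.6, 8.14 and 6.80, were all below the control arrays without a call (-0.36 ± 0.28, limma adjusted p = 0.52).

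Whether the probe sets of 1 gene differed was tested on their within-array log2 difference, null against control, by two-sided exact permutation tests adjusted over 5 pairs. The smallest p that 4 against 4 allows is 0.0286. Relative to 146933_at the set 151736_at shifted by -0.66, and relative to 146934_at by -0.70 (exact permutation p = 0.0286, adjusted p = 0.0476 for each). With a pseudocount of 1 both calls were lost, at -0.74 (exact permutation, adjusted p = 0.286) and -0.63 (exact permutation, adjusted p = 0.5). It differed from 142967_at by -0.08 (exact permutation p = 0.686, adjusted p = 0.686). Where the mean over the 4 sets stood for the gene, CAP changed by -0.32 in the null and was not called (limma adjusted p = 0.14). Which transcripts each set detects is not given in the sources used here.

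**Figure D3:**
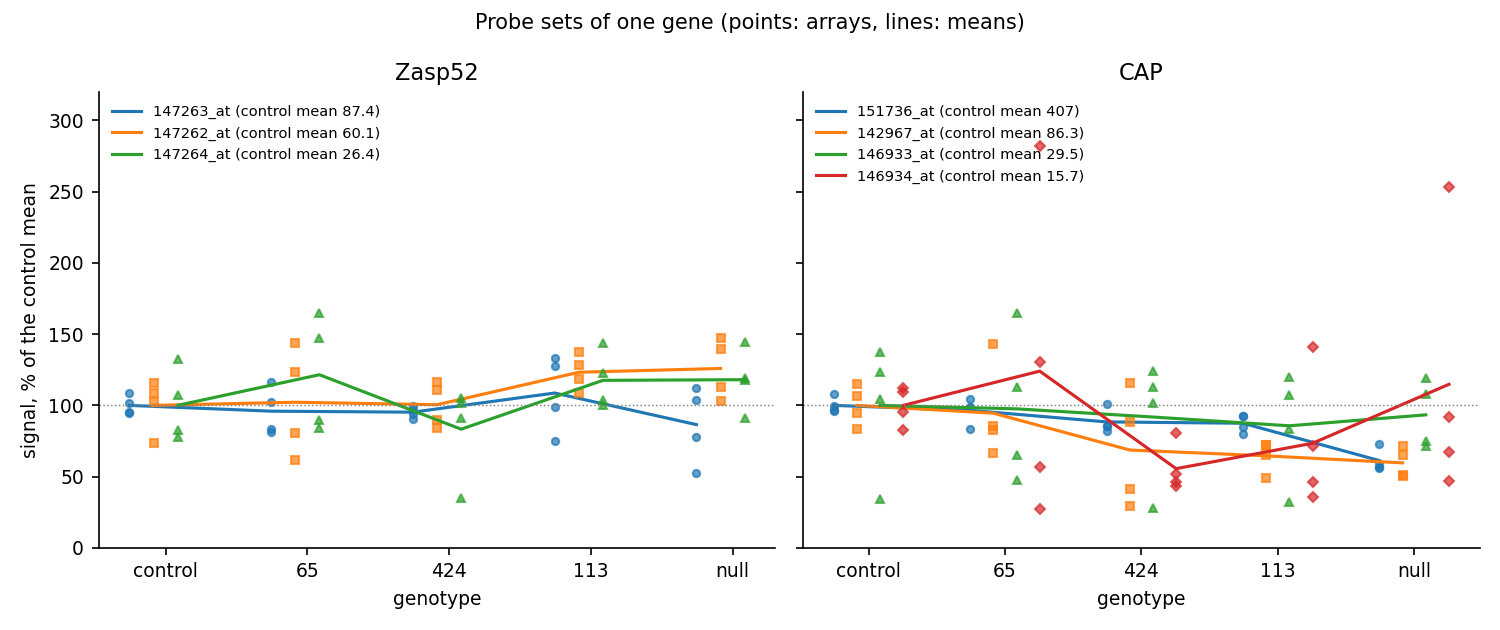
Signal of each probe set of Zasp52 and CAP as a percentage of its own control mean (linear axis from 0), by genotype, with points for arrays and lines through means. The brightest CAP sets, 151736_at and 142967_at, decline toward the null. Means of the dim CAP sets and the Zasp52 sets lie on both sides of 100, from 55.6 for 146934_at in 424 to 126 for Zasp52 147262_at in the null.

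Zasp52, the alpha-actinin-binding PDZ and LIM domain gene, was not called in any of the 7 comparisons by any of its 3 probe sets. Set 147263_at read 83.3, 94.8, 88.6 and 82.8 in the control and 97.7, 90.6, 46.1 and 67.8 in the null, where 2 arrays lay inside or above the control range and 2 below it. Its change was -0.21 ± 0.17 (limma adjusted p = 0.444), with a 95% interval from -0.56 to 0.13. Set 147262_at read 61.5, 69.5, 44.1 and 65.1 in the control and 88.5, 84.0, 62.0 and 68.0 in the null, a change of 0.27 ± 0.17 (limma adjusted p = 0.325).

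The 2 sets thus had opposite signs, and the within-array difference between them shifted by -0.48 (exact permutation p = 0.0286, adjusted p = 0.0476 over the 5 pairs). With a pseudocount of 1 it was -0.59 and the call was lost (exact permutation, adjusted p = 0.143). The third, 147264_at, changed by 0.16 ± 0.19 (limma adjusted p = 0.65) and its difference from 147263_at shifted by -0.37 (exact permutation p = 0.314, adjusted p = 0.393). In the hypomorphs the 3 sets changed by between -0.18 and 0.25, with array ranges that overlapped the control throughout. In no set did neighbouring genotypes in the order of means differ past the threshold.

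Mlp84B (143769_at), the muscle LIM protein gene, had the highest mean in the control, but its arrays overlapped between all genotypes. The control read 36.1, 54.9, 46.7 and 54.4, and the null read 18.1, 39.9, 25.6 and 43.4. The means were 48.0 ± 8.82 in the control and 31.8 ± 11.9 in the null (SD, n = 4 each), a log2 change of -0.45 ± 0.19 (limma adjusted p = 0.121). The 95% interval ran from -0.85 to -0.05.

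The hypomorph means of Mlp84B were close to each other. Those of 65, 424 and 113 were 35.9 ± 8.92, 34.2 ± 10.2 and 35.1 ± 7.04 (SD, n = 4 each), with changes of -0.31, -0.37 and -0.32 (SE 0.19 each) and no call. On each hybridisation day the null array was below the control array, by -0.61 to -0.25. Between the module 4 arrays the change was -0.75, and with the module as a block the null was called (limma adjusted p = 0.0203). The 2 null arrays in that module, replicates 1 and 3, were the lowest of the null.

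**Figure D4:**
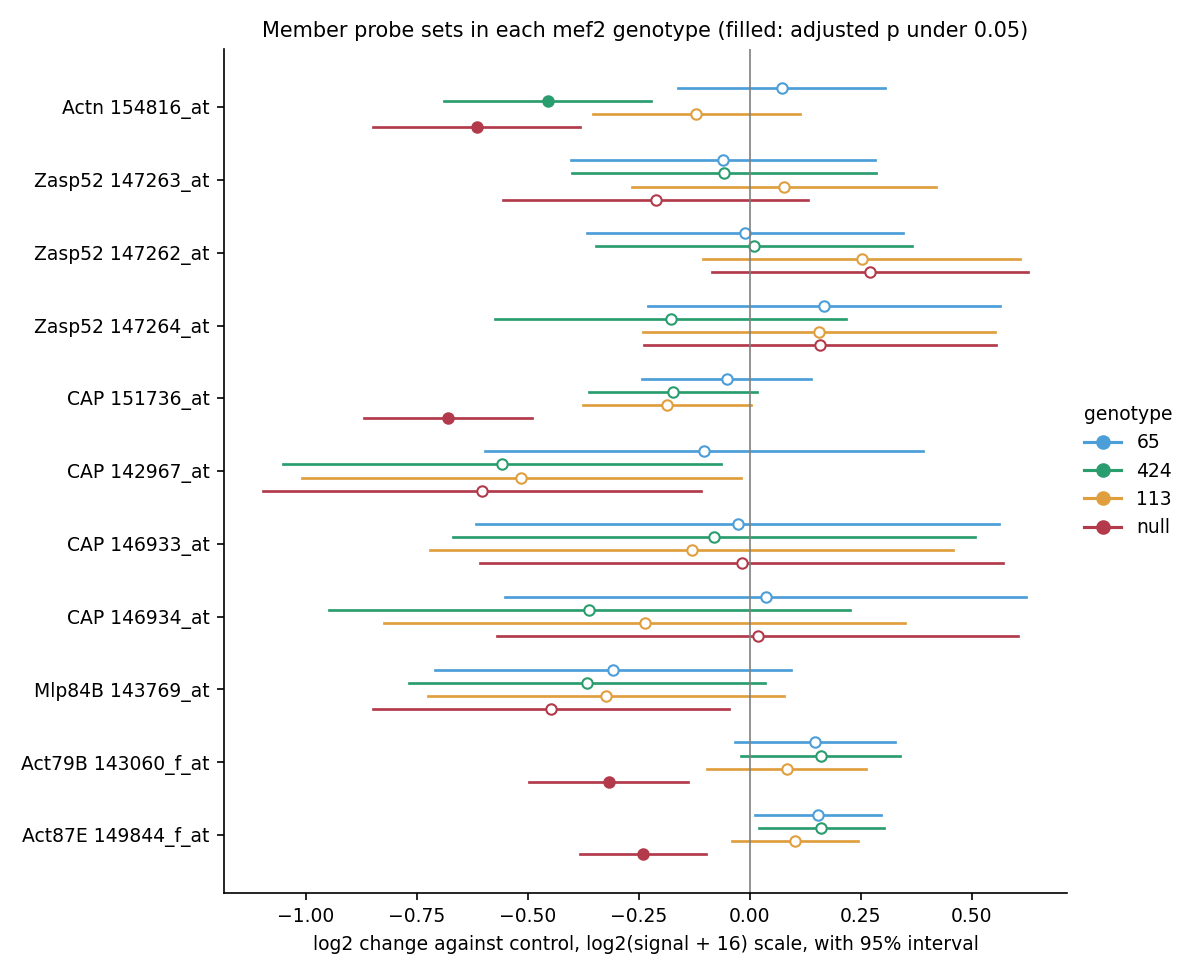
Log2 change against control of the 11 probe sets in each mef2 genotype, with 95% intervals from limma, on the log2(signal + 16) scale. Filled points passed an adjusted p of 0.05: 4 sets in the null and Actn in 424; the widest intervals are those of the dim CAP sets.

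The actin sets were called lower in the null and in no hypomorph. The Act87E set (149844_f_at) read 2235, 2401, 2545 and 2509 in the control and 2054, 2116, 1924 and 2093 in the null, without overlap. The mean went from 2423 ± 139 to 2047 ± 85.8 (SD, n = 4 each), 84.5% of the control, a log2 change of -0.24 ± 0.07 (limma adjusted p = 0.015) with a 95% interval from -0.38 to -0.10. Among the 4 calls it was lost in the most alternatives, 4 of 21, among them median centring (-0.19, limma adjusted p = 0.0769), without control replicate 3 (-0.22, limma adjusted p = 0.0527) and without null replicate 3 (-0.21, limma adjusted p = 0.0571).

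In the hypomorphs the Act87E set read 2582, 2864, 2449.8 and 2904 in 65, 2688, 2681, 2757 and 2705 in 424 and 2627, 2402, 2589 and 2784 in 113. Of these 12 arrays, 10 lay above the highest control array and 12 above the highest null array. The 424 arrays were all above the control, as was the case for 7.12% of all tested sets. None of the 3 changes was called, at 0.15 ± 0.07 in 65 (limma adjusted p = 0.26), 0.16 ± 0.07 in 424 (limma adjusted p = 0.162) and 0.10 ± 0.07 in 113 (limma adjusted p = 0.5). After quantile normalisation the 113 change was 0.00.

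The Act79B set (143060_f_at) had a similar profile. It read 506, 546, 558 and 614 in the control and 457, 436, 457 and 419 in the null, where all arrays lay below the control range. The mean went from 556 ± 44.9 to 442 ± 18.4 (SD, n = 4 each), 79.5% of the control, a change of -0.32 ± 0.09 (limma adjusted p = 0.0114). With the module as a block the change was -0.27 and was not called (limma adjusted p = 0.136).

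Hypomorph arrays of the Act79B set ran from 539.8 to 758 with a median of 594, all 12 above the highest null array and 4 above the highest control array. The highest, 758, was 65 replicate 1. Changes against the control were 0.15, 0.16 and 0.08 (SE 0.09 each) in 65, 424 and 113, with limma adjusted p of 0.455, 0.297 and 0.705. For both actin sets the order of means was 424, 65, 113, control and null, and only the last pair of neighbours, control and null, differed past the threshold.

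Over the 20 arrays the log2 values of the actin sets had a Pearson r of 0.83, a description of 2 sets that may share target mRNA and that share every array. The within-array difference between them shifted by -0.08 between null and control, in a comparison chosen after seeing the data (exact permutation p = 0.229). Among the other members, Actn correlated at 0.76 with CAP 142967_at and at 0.63 with CAP 151736_at, and CAP 151736_at at 0.73 with the Act87E set, over the same arrays.

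The last step of the series, from 113 to the null, moved the same 4 sets that the null moved against the control, with 13.4% of all tested sets called. Both comparisons use the same null arrays. In the last step the changes were -0.49 ± 0.11 for Actn (limma adjusted p = 0.0038), -0.40 ± 0.09 for the Act79B set (limma adjusted p = 0.0023) and -0.34 ± 0.07 for the Act87E set (limma adjusted p = 0.0011). All 4 null arrays lay below all 4 of the 113 arrays for each of the 4, as for 8.80% of all tested sets. Within hybridisation days every one of these differences was below 0, and the smallest was -0.18, for the Act87E set.

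Fewer sets were called in the comparisons of 65 and 113 with the control, and of 113 with 424, than in the last step. This held for all tested sets as well as for the members. The step from 65 to 424, in which Actn was called, is given above. In 65 against the control 0 of 11 were called by limma and 1 had an unadjusted p under 0.05, as did 15.7% of all tested sets, of which 5.63% were called. The count in 113 against the control was also 0, with 1 at an unadjusted p under 0.05 against 17.5% of all sets, and 6.73% of all sets called, although 2 sets, both of CAP, lay entirely below the control, as 6.15% of all sets did. Between 113 and 424 the count was 0, with 1 at an unadjusted p under 0.05 against 18.9% of all sets, and 6.39% of all sets were called. The median changes against the control were -0.01 in 65, -0.17 in 424 and -0.12 in 113, against 0.01, 0.01 and 0.00 over all tested sets.

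Genes for other proteins of the Z-disc showed larger changes than the members in some cases. Of 10 partners, each taken by its brightest probe set, 6 passed the filter. In the null 2 of these fell and 0 rose, with a median of -0.35. They were Msp300, which encodes a nesprin, at -2.41 ± 0.20 (limma adjusted p = 3.90e-09), and the titin-related gene sls, at -1.78 ± 0.17 (limma adjusted p = 3.53e-08), whose null mean of 8.96 was under the filter level of 9.29. Msp300 was lower in 113 at -1.96 and in 424 at -1.08, and sls in 113 at -0.79.

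The partners zormin, cher, stv and l(2)efl were not called in the null. The filamin gene cher stood at -0.01 there but was called lower in 424, at -0.44 ± 0.09 (limma adjusted p = 0.0012), in the genotype in which Actn was also called. Zasp66, Zasp67, Mlp60A and tn were under the filter. Among the other actin genes, Act88F had a probe set, also under the filter, and Act5C, Act42A and Act57B were not analysed here.

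Genes past the filter that regulate the thin filament or belong to the thick filament had larger changes than the 6 genes above. All 3 thin filament regulators past the filter fell in the null, with a median of -2.54: TpnC73F, a troponin C gene, up, the troponin T gene, and Tm2, a tropomyosin gene. The genes of a thick filament list that passed the filter all fell too, with a median of -3.09. They were the myosin light chain genes Mlc1 and Mlc2 and bt, which encodes the titin-related protein projectin. Under the filter were Prm of that list and TpnC41C of the regulators. Their means were 4.58 and 4.90 in the control and 4.28 and 9.47 in the null. Tm1, wupA, TpnC47D and TpnC25D of the regulators and Mhc of the thick filament list were not analysed here. No probe set was paired with any of these symbols alone. The null means of up (6.94), TpnC73F (3.65), Mlc1 (3.88) and bt (2.39) all lay below 9.29, the signal used as filter, and how large their drop appears is set in part by the pseudocount. For TpnC73F it was -2.94 with a pseudocount of 16, -5.23 with 1 and -1.55 with 64. The 3 regulators also fell in 424 and in 113, 3 of 3 in each, with medians of -1.05 and -1.84.

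**Figure D5:**
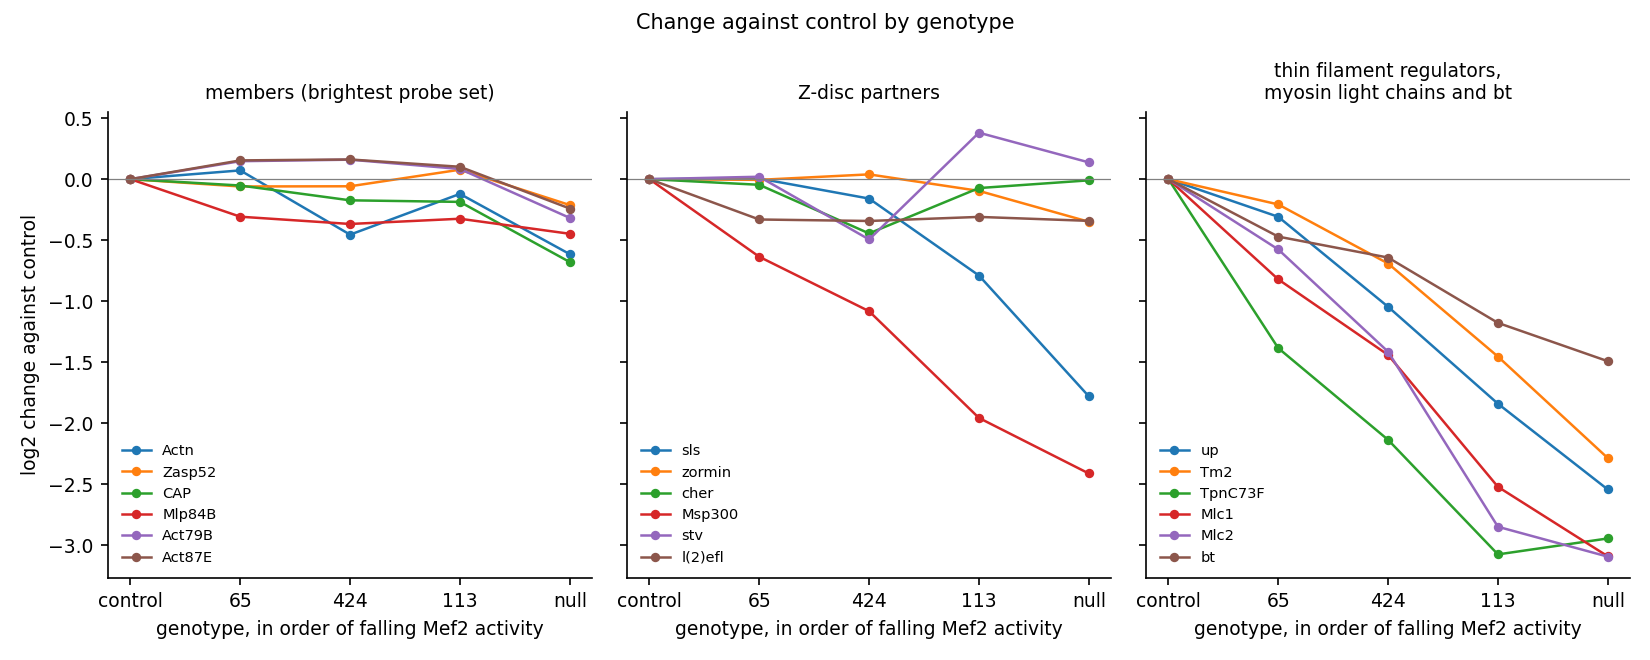
Log2 change against control across the genotypes in the labelled order of Mef2 activity, for 1 probe set of each member gene, for the Z-disc partners past the filter, and for the thin filament regulators, Mlc1, Mlc2 and bt, on 1 shared axis. Member changes stay between -0.68 and 0.16, whereas those of the latter genes reach -3.09 in the null; TpnC73F is lower in 113, at -3.07, than in the null, at -2.94.

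Genes for proteins that cap, sever or nucleate actin filaments went both ways. Of 9 genes past the filter, 2 fell and 2 rose in the null, with a median of 0.08. The genes that fell were flr, which encodes an Aip1 protein that helps to disassemble filaments, at -0.70 ± 0.10, and the formin gene Fhos, at -0.56 ± 0.13. Those that rose were tmod, the pointed-end cap tropomodulin, at 0.28 ± 0.08, and cpb, the beta subunit of capping protein, at 0.32 ± 0.10. The tmod set was also called higher in all 3 hypomorphs, at 0.38 in 65, 0.52 in 424 and 0.29 in 113.

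All 10 genes of a list for integrin adhesions, where CAP is also found, had a probe set past the filter. In the null 4 of 10 fell and 2 rose, with a median of -0.34. The integrin alpha subunit gene if changed by -0.95, parvin by -0.70, the PINCH gene stck by -0.48 and mys, the integrin beta subunit gene, by -0.41. The talin gene rhea rose by 0.40 and mew, another alpha subunit gene, by 0.38. Vinc, the vinculin gene, whose product binds CAP, was not called, at -0.06 (limma adjusted p = 0.921).

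Other cell types were followed with marker lists in the same null comparison. Of the 12 myoblast and founder markers tested, 2 fell, nau at -0.76 and Dr at -0.50, and 2 rose, eve at 0.63 and lmd at 0.42. All 4 visceral muscle markers tested fell, HLH54F at -1.28, bap at -0.64, betaTub60D at -0.49 and bin at -0.43. Among heart markers 0 of 6 fell and 1 rose, mid at 0.40, and among neuron markers 0 of 4 were called. Glia markers gave 1 lower of 5, loco at -0.28, and 2 higher, repo at 0.91 and nrv2 at 0.78. Hemocyte and trachea markers gave 1 higher each of 5 and 3, Col4a1 at 0.37 and verm at 0.38. Epidermis markers gave 3 lower of 6, pio at -2.24, f at -0.58 and Nrx-IV at -0.38, and 1 higher, grh at 1.00. The pio set was called in no hypomorph. The part of these lists in the members' changes was not tested.

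For the brightest set of each member gene, the 3 genes with the most similar profile were sought among 8356 genes, by Pearson r of log2 values over the 20 arrays. For Actn they were CG10737 (0.86), bchs (0.85) and Pfk (0.85), the last being phosphofructokinase of glycolysis. For CAP they were bgm, NtR and Myd88, at 0.91 each. For the Act79B set they were miple1 (0.89), Usp14 (0.88) and Nubpl (0.87), and for the Act87E set CG6565, Gar1 and CG4045, at 0.90 each. Mlp84B and Zasp52 had lower values, with Hr78 (0.74), PpV (0.72) and can (0.71) for Mlp84B and CG5756 (0.73), CG31462 (0.71) and CG17777 (0.68) for Zasp52. These are the highest of many values over arrays that share 5 genotypes and 4 days.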

How the data were processed

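Total RNA of whole embryos was measured on 20 Affymetrix arrays. The deposited values are MAS5 intensities, 1 signal per probe set, made by the authors, per the submitters' processing notes. For MAS5 no version, and for the array design no genome build, is given in the sources used here. Detection calls and sequences were not analysed here. After 44 control sets of 14010 were left out, 12443 sets had 1 symbol, 327 several and 1196 none. Of those with 1 symbol, 12394 matched the RefSeq Release 6 gene table. The lowest 25% of sets by mean log2 value were left out, at a signal of 9.29. limma 3.58.1 in R 4.3.3 (lmFit, eBayes with a trend) fitted 1 mean per genotype on log2(signal + 16), with 15 residual degrees of freedom and a prior of 8.15 in the median. P-values were adjusted by Benjamini-Hochberg over 10474 sets. Probe sets of 1 gene were compared by exact permutation (scipy 1.17.1), and python 3.11.15, numpy 2.4.6, pandas 2.3.3 and matplotlib 3.10.9 were used for tables and plots. The number of arrays limits the precision. The members and the gene lists were chosen with earlier results of these data known. Named were all members, up to 4 called genes per list with the largest null change, list genes called higher, and the 3 genes most alike. The genes zormin, cher, stv, l(2)efl, Vinc, Prm and TpnC41C were named after their values were seen. Hybridisation day and fluidics module came from the arrays' run records. The procedure was tested on simulated data. Alternatives were the pseudocount (1 and 64), the filter, scaling, normalisation, spread model, samples fitted, probe set rule, blocks and each array left out in turn.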

Additional observations from a re-analysis of the deposited data

How the results depend on the processing

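Actn in the null kept its call in 21 of 21 alternatives, at -0.67 to -0.53, as did Actn in 424 against 65, and Actn and both actin sets in the null against 113. In the null against the control, the calls of CAP 151736_at and Act79B were each lost in 1 of 21 and that of Act87E in 4, one of them eBayes without a trend (limma adjusted p = 0.0501). None of these values changed sign. With the fluidics module as a block, the called probe sets numbered 1231 in place of 1850 in the null, 96 in place of 705 in 113, 87 in place of 925 in 424 and 67 in place of 590 in 65. For 424 against 65 they numbered 239 in place of 423, for 113 against 424 310 in place of 669, and for the null against 113 630 in place of 1401. In that setting 0 members were called in 424 against the control, where 1 was called otherwise. The median standard error grew 1.24-fold in the null, of which 2 arrays shared module 4 with the control, and 2.03-fold in 424. No hypomorph array shared a module with a control array.

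Median centring turned the null split from 848 higher and 1002 lower to 1129 and 821, and the split of the null against 113 from 634 and 767 to 828 and 643. It shifted all values by 0.05 in the null.

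Leaving out 1 array at a time, the called members numbered 3 to 4 in the null, 0 to 2 in 424 and 0 to 1 in 113 against 424. In 424 the count was 0 without 424 replicate 2 or 4 and 2 without replicate 1, where CAP 142967_at was added (-0.81, limma adjusted p = 0.0272). Without 424 replicate 1, Actn was also called in 113 against 424 (0.43, limma adjusted p = 0.0272). With a pseudocount of 1 the calls on differences between probe sets were lost for 147263_at less 147262_at (-0.59), 151736_at less 146933_at (-0.74) and 151736_at less 146934_at (-0.63), and they were kept with 64, after median centring and after quantile normalisation. These differences could not pass the threshold with 1 array left out, the smallest adjusted p being 0.0952. Their ranges were then -0.54 to -0.37 for 147263_at less 147262_at, -0.53 to -0.19 for 147263_at less 147264_at, -0.21 to 0.03 for 151736_at less 142967_at, -0.80 to -0.43 for 151736_at less 146933_at and -0.87 to -0.40 for 151736_at less 146934_at.

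Called probe sets in the null numbered 2125 with the replicate number as a block and 2061 with the day as a block, and in 113 against 424 either block added the call of Actn. The 40 same-numbered pairs of arrays had correlations of -0.03 to 0.20, with 14 over 0.1. The labels tie the numbers to no shared source and not every pair was over 0.1, so they were not taken as a pairing, although 16 of 20 arrays correlated best with their own number, a hint from the data. The cause of these shifts was not tested.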

Other observations

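The integrin beta subunit gene mys, singled out after its values were seen, was lower in the hypomorphs than in the null. Its mean signal was 593 in the control, 268 in 65, 213 in 424, 213 in 113 and 445 in the null (n = 4 each). The log2 changes against the control were -1.10 in 65, -1.41 in 424, -1.42 in 113 and -0.41 in the null (SE 0.09 each), and all 4 were called by limma. The talin gene rhea, whose product links integrins to actin, was called higher in all 4 mutant genotypes, by 0.65, 0.64, 0.47 and 0.40 (SE 0.09 each) in the same order. Nrx-IV, a septate junction gene, also singled out afterwards, changed by -1.22 ± 0.09 in 424 (limma adjusted p = 3.80e-10) and by 0.06 in 113 (limma adjusted p = 0.811).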
